A study of Gallus gallus with 14 samples.

Results

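Many of the lncRNAs that were already known in chicken left hardly a trace in the uterovaginal junction (UVJ) of egg-laying hens. They are described here as near-silent known lncRNAs. A lncRNA was counted as known when the table of lncRNAs gave it an identifier of NONCODE, a database of non-coding RNAs, and as near silent when no more than 3 fragments (sequenced read pairs) were counted on it in any of the 14 hens. LncRNAs on chromosomes 16, Z and W were left out. Of the 7040 known lncRNAs on the remaining chromosomes, 3370 met the rule, or 47.9%. They make up 33.8% of all 9977 lncRNAs in the table, of which 7401 are known and 2576 are unknown transcripts assembled by the authors.

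The 14 UVJ libraries came from 14 individual hens, 7 with a long duration of fertility after a single insemination (long-DF) and 7 with a short one (short-DF), with no pooling of hens. No other treatment or genotype is given, and the hens, all egg-type chickens, came from 1 farm. Each group held 4 hens whose label begins with JH and 3 whose label begins with JF. What these prefixes stand for is not given in the sources used here. Between 213304 and 281892 fragments per hen were counted on lncRNAs, and the near-silent known lncRNAs took 27601 of the 3285482 fragments on lncRNAs over all hens, or 0.84%. At a count of 0, as many as 3 fragments could have been missed (0.00106% to 0.00141% of a hen's lncRNA total). Each count of a near-silent lncRNA thus lies at or under what a count of 0 in that hen cannot exclude. This holds for single hens and not for the fragments of a lncRNA summed over the 14 hens. PCR duplicates were not marked, so this limit holds for counting error alone. The intervals given below are over lncRNAs, which they treat as independent. They hold neither the counting error of fragments nor the spread between hens. The table holds lncRNAs alone, so no marker gene could be used to check the tissue.

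The UVJ is the band of the oviduct next to the vagina whose sperm storage tubules keep sperm alive between inseminations. LncRNAs are transcripts of more than 200 nt without a long open reading frame. They are commonly weaker and more confined to single tissues or stages than mRNAs, and several of them often lie over each other at a locus, on the same or on opposite strands. An annotation such as NONCODE collects lncRNAs found in many tissues, so in any tissue a part of it may not be transcribed. In bulk tissue, a low count from few cells that express a transcript and a low count from little RNA in each cell cannot be told apart.

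The fragments on near-silent known lncRNAs were few, but they were spread over the hens. Only 56 of the 3370, or 1.66%, had 0 fragments in all 14 hens. The highest count in any hen was 1 fragment for 1582 lncRNAs (46.9%), 2 fragments for 1097 (32.6%) and 3 fragments for 635 (18.8%). Over the 47180 values, 55.4% were 0, 33.1% were 1, 9.15% were 2 and 2.37% were 3. The median near-silent lncRNA had 6 fragments summed over hens, found in 5 hens, and 2203 of the 3370 (65.4%) had a fragment in no more than 7 hens. At the other end, 227 (6.74%) had at least 1 fragment in every hen. Because the rule used these counts, they describe the choice of lncRNAs and test nothing.

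**Figure D1:**
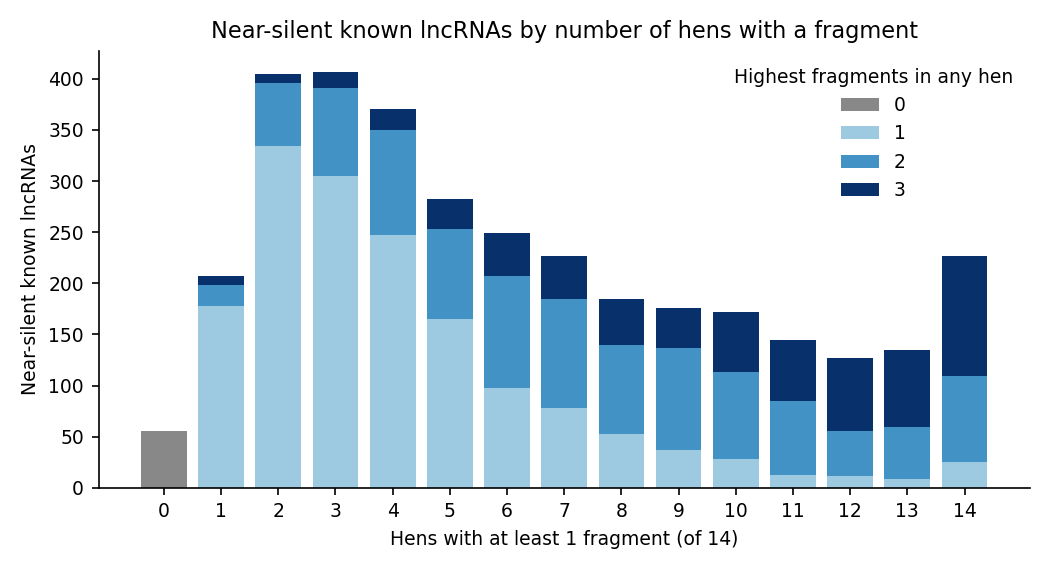
Number of near-silent known lncRNAs (y axis) by the number of hens, of 14, with at least 1 fragment (x axis); colours give the highest fragments in any hen. The bars peak at 2 to 4 hens, which hold 1182 lncRNAs, and there is a second, smaller peak of 227 lncRNAs with a fragment in all 14 hens.

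Just inside and just outside the threshold, the values were close, which the neighbouring highest counts largely set. The 635 lncRNAs just inside, with a highest count of 3, had a median of 17 fragments over all hens (3 to 34) in a median of 11 hens. The 389 known lncRNAs just outside, with a highest count of 4, had a median of 23 fragments (4 to 49) in a median of 12 hens.

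The 5 near-silent lncRNAs with the most fragments had 32 to 34 over the 14 hens. NONGGAT001079.2 (chr1:129280445-129292254 on Galgal4, 585 nt), with 34 fragments, was at 2 or 3 in every hen. It was followed by NONGGAT013236.1 (chr11:17961609-18159036, 838 nt) with 33, and by NONGGAT014181.1 (chr2:67076008-67179921, 1391 nt), NONGGAT015427.1 (chr4:12762494-12809511, 456 nt) and NONGGAT001160.2 (chr1:142101681-142104600, 283 nt) with 32 each. None of the 5 overlapped an expressed lncRNA, where expressed means more than 3 fragments in at least 1 hen. Their mean FPKM (fragments scaled to the transcript's length in kilobases and to the size of the library) was 0.231 for the longest and 1.13 for the shortest, so a count near the threshold stood for different levels per length. The test of long-DF against short-DF hens, described further on, gave an adjusted p of 0.995 for each of them (edgeR).

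Among the 227 lncRNAs found in every hen, the median length was 343 nt and the median of the mean FPKM was 0.57. The 5 longest of them were NONGGAT016272.1 (chr8:11704699-11734642, 2426 nt), NONGGAT013919.1 (chr2:91936497-91981093, 2338 nt), NONGGAT000383.2 (chr1:50106157-50147432, 1865 nt), NONGGAT015227.1 (chr4:23258477-23284519, 1823 nt) and NONGGAT006998.2 (chr4:45777266-45779778, 1548 nt). They had 19, 21, 23, 16 and 27 fragments over the 14 hens, in this order, and 1 to 3 in each hen. Among the 5, NONGGAT000383.2 and NONGGAT015227.1 overlapped an expressed lncRNA. The strongest partner of NONGGAT000383.2 was NONGGAT000380.2, with 0 to 4 fragments per hen, and that of NONGGAT015227.1 was NONGGAT006804.2, with 8 to 21. NONGGAT015227.1 was present at 1 fragment in most hens and at 2 in 2 hens.

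Most known lncRNAs that met the rule in one set of hens also met it in the other. In each direction, those that met it in both sets are the same 3370 lncRNAs. The backgrounds over all known lncRNAs include these as well, so the shares are a description and test nothing. When the rule was applied in the long-DF hens alone it took 3634 known lncRNAs, of which 92.7% were also at no more than 3 fragments in every short-DF hen, compared with 52.8% of all 7040 known lncRNAs. Applied in the short-DF hens, it took 3719, of which 90.6% held in the long-DF hens (51.6% of all known lncRNAs). The share was 91.0% from JH to JF hens and 88.3% from JF to JH hens, with 54.2% and 52.6% of all known lncRNAs as background. Of the 264 lncRNAs near silent in long-DF hens that crossed the threshold in short-DF hens, 183 reached 4 or 5 fragments and 25 reached more than 10.

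A few of the lncRNAs that crossed did so by far, and they are named here after their values were seen. NONGGAT007916.2 (chr5:57480545-57480825, 281 nt) had 891 fragments in the short-DF hen JH109 and 0 in each of the other 13 hens, so it failed the rule through 1 library. NONGGAT000025.2 (chr1:731486-735390, 1497 nt) had 0 fragments in all 8 JH hens, against 185, 354, 240, 198 and 289 in 5 of the 6 JF hens and 0 in the sixth. NONGGAT014414.1 (chr20:9362389-9370709, 352 nt) had 122, 334 and 143 fragments in 3 long-DF hens and 0 to 2 in the other 11.

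Near-silent known lncRNAs were shorter than the rest. Their median length was 528.5 nt (quartiles 346 and 837, range 201 to 12126), compared with 807.5 nt (508.2 and 1388.8, range 201 to 20750) for the 3670 other known lncRNAs. Transcripts over 1000 nt made up 18.3% and 40.1%. The share of known lncRNAs that was near silent was 72.0% among those of up to 300 nt, 63.2% over 300 and up to 400 nt, 54.5% up to 600 nt, 45.5% up to 1000 nt, 33.2% up to 2000 nt and 20.6% above 2000 nt. Length is not independent of the rule, because a short transcript collects fewer fragments at the same level. When near silence was instead taken per length, as an FPKM under 0.1 in every hen, 162 known lncRNAs were left. The order of lengths then turned round, with a median of 1899.5 nt, compared with 645.5 nt for all others. This rule is tied to length as well, because any fragment lifts a short transcript to an FPKM of 0.1 or more. A short transcript could thus meet it only without a fragment in any hen. The turn was largely set by the rule, so it cannot decide how length and level go together. Of the 162, 161 were also near silent by fragments.

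The span of near-silent lncRNAs on the genome, introns included, was close to that of the others. Its median was 2862 nt for near-silent lncRNAs and 2981 nt for other known lncRNAs. With less transcript in a like span, the median ratio of span to length was 4.86 for near-silent lncRNAs and 2.83 for other known ones. Span and length were equal, as they are in a transcript without introns, in 37 near-silent lncRNAs (1.1%) and in 46 others (1.25%). The 56 lncRNAs with 0 fragments had a median length of 640.5 nt (quartiles 351.8 and 1391.8), and 35.7% of them were over 1000 nt.

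Per length, the near-silent lncRNAs covered a range of levels. The median over near-silent lncRNAs of the mean FPKM was 0.109, compared with 1.13 for other known lncRNAs, but 359 (10.7%) reached an FPKM of 1 in at least 1 hen, and the highest was 2.44. Of the near-silent lncRNAs, 1379 (40.9%) reached an FPKM of 0.5 in some hen.

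Near-silent lncRNAs came unequally from the collections that NONCODE drew on. The table names the source of each known lncRNA. Of the 1776 from the source PMID24463510, a published collection that the table gives by its PubMed number, 1312 were near silent, or 73.9% (95% Wilson interval 71.8 to 75.9). The share was 39.5% (37.7 to 41.4) of 2625 from the earlier NONCODE release NONCODEv4 and 39.2% (37.3 to 41.1) of 2562 from PMID26117828, the other collection given by a PubMed number. In smaller sources, 10 of 32 lncRNAs from Ensembl, 1 of 3 from noncodeV3 and 5 of 42 from RefSeq were near silent. The difference between the larger sources was present in each class of length. At up to 300 nt, the share was 87.3% for PMID24463510, 62.5% for PMID26117828 and 59.2% for NONCODEv4, and above 2000 nt it was 48.2%, 14% and 13.7%. In each of the 6 classes the interval of PMID24463510 lay above those of both.

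**Figure D2:**
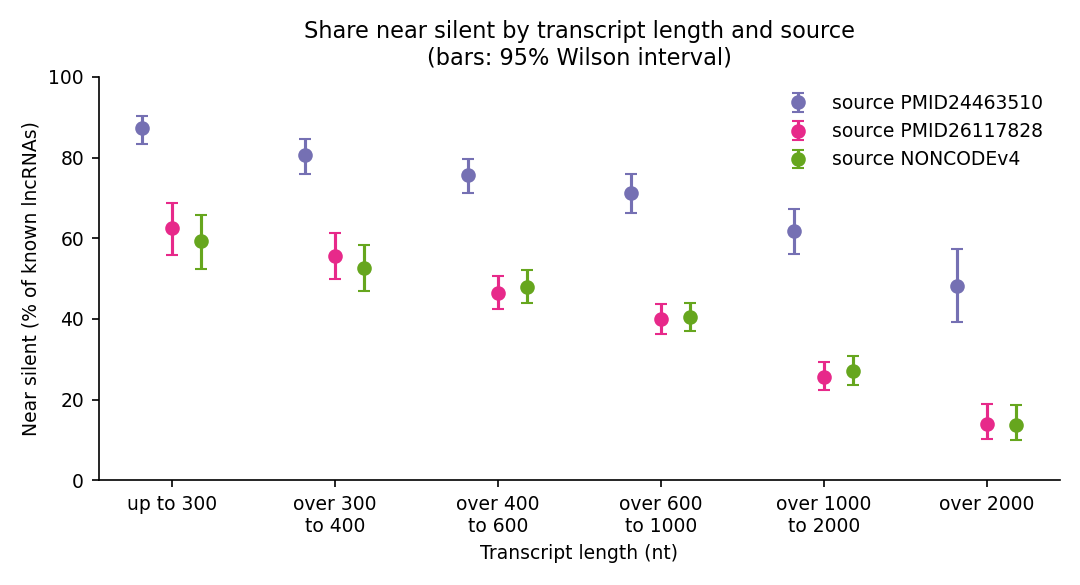
Share of known lncRNAs that were near silent (y axis, %) by transcript length in nt (x axis) and source (colours), with 95% Wilson intervals over lncRNAs. The share falls with length within each source, and PMID24463510 lies above the other sources in each class, from 87.3% at up to 300 nt to 48.2% above 2000 nt.

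Some lncRNAs of PMID24463510 carry a name made of blastn, a sequence comparison program, and another species. Of 55 such lncRNAs, 43 were near silent (78.2%), close to the 73.7% among the 1721 other lncRNAs of the source. Among those named with human, 12 of 20 were near silent, and among those named with mouse 17 of 20. These names were looked at after the values were seen.

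The 5 near-silent lncRNAs from RefSeq include transcripts with a gene symbol, taken from the RefSeq gene table by accession, and were likewise picked after their values were seen. TERC, the RNA that serves telomerase as its template (NONGGAT016468.1, chr9:19428749-19429086, 338 nt), had 1 fragment in 3 hens, the long-DF hen JF61 and the short-DF hens JF40 and JF56, and 0 in the other 11. MIR155HG, the host transcript of a microRNA known from activated immune cells (NONGGAT012355.1, chr1:101813919-101822969, 2398 nt), had 16 fragments in 9 hens, at 0 to 3 in long-DF hens and 0 to 3 in short-DF hens. A non-coding transcript of RBM24, the gene of an RNA-binding protein of heart and muscle (NONGGAT013845.1, chr2:62005216-62015887, 2951 nt), had 9 fragments, 1 in each of 9 hens, and lay across the expressed NONGGAT004103.2 (0 to 9 fragments per hen).

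The remaining RefSeq lncRNAs each shared a locus and a symbol with an expressed transcript. HOXA10-AS lies antisense to HOXA10, which patterns the reproductive tract in mammals. Its transcript of 741 nt (NONGGAT013778.1, chr2:33158600-33160633) had 0 fragments in all 14 hens. Another HOXA10-AS transcript with the same start and end (NONGGAT013777.1, 884 nt) had a lowest, median and highest count of 0, 16 and 25 fragments in long-DF hens and of 0, 13 and 22 in short-DF hens. It was at 0 in the JH hens JH104, JH68, JH109 and JH130, and at 10 or more in the other 10 hens. LOC420411 showed the same arrangement. Its transcript of 767 nt (NONGGAT003675.2, chr2:4035555-4037650) had 1 fragment in 8 hens, while that of 763 nt with the same start and end (NONGGAT003673.2) had 32 to 71 fragments in long-DF hens and 33 to 72 in short-DF hens. How the authors assigned a fragment that fits several overlapping transcripts is not given in the sources used here, so counts of such pairs cannot be read as the levels of separate transcripts.

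Near-silent known lncRNAs were unevenly spread over the chromosomes. Chicken has a few large chromosomes and many small, gene-dense ones. On chromosomes 1 to 5, 1871 of 3562 known lncRNAs were near silent (52.5%, 95% Wilson interval 50.9 to 54.2), on 6 to 10 it was 656 of 1365 (48.1%, 45.4 to 50.7), and on the smaller chromosomes 843 of 2113 (39.9%, 37.8 to 42.0). Among chromosomes with at least 50 known lncRNAs the share was highest on chromosome 2 (57.3%), chromosome 1 (53.9%) and chromosome 3 (53.5%), and lowest on chromosome 27 (23.9%), chromosome 24 (32%) and chromosome 15 (32.3%). This order depended in part on the source PMID24463510. With it left out, chromosome 2 was still highest (50.6%), but chromosomes 3 (42.4%) and 1 (40.8%) lay below chromosome 7 (42.9%). Chromosomes 27 (19.6%) and 24 (25.8%) were still lowest, and chromosome 15 (28.5%) lay above chromosome 21 (27.3%). Without the source PMID24463510 the shares were 42.3% (40.4 to 44.2) on chromosomes 1 to 5, 39.8% (36.9 to 42.8) on 6 to 10 and 33.9% (31.7 to 36.2) on the smaller ones, so the intervals of the larger classes then overlapped. In each of the 6 classes of length the share was lowest on the smaller chromosomes, at 75.5%, 76% and 63.0% in the same order of chromosomes for up to 300 nt and at 26.8%, 16.5% and 13.0% above 2000 nt. Without PMID24463510 the share was lowest on the smaller chromosomes in each class of length but that over 1000 and up to 2000 nt. In that class the shares were 27.5%, 24.3% and 25.1%, while up to 300 nt they were 62.1%, 67.5% and 52.2%. The median length of known lncRNAs was alike in the 3 classes, at 651, 643 and 666 nt.

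Most near-silent lncRNAs lay alone. Of the 3370, 2114 (62.7%) overlapped no other lncRNA of the table, 644 (19.1%) overlapped near-silent lncRNAs only, and 612 (18.2%, 95% Wilson interval 16.9 to 19.5) overlapped an expressed lncRNA. Of the 3670 other known lncRNAs, 1770 (48.2%) lay alone, 270 (7.36%) overlapped near-silent lncRNAs only and 1630 (44.4%, 42.8 to 46.0) overlapped an expressed one. Overlap was taken by span, on either strand, because the table gives no strand for known lncRNAs. The lower share in near-silent lncRNAs was present in each class of span, at 12.0% in near-silent and 24.8% in other known lncRNAs under 1 kb, and at 32.2% and 61.9% from 20 kb upwards. It was also lower with each other definition of overlap and expression that was run. With more than 3 fragments in every hen required of the partner, it was 4.51% in near-silent and 18.2% in other known lncRNAs. With unknown partners only, the gap was small, at 1.39% in near-silent and 1.93% in other known lncRNAs. A known partner with more than 3 fragments in at least 1 hen is one that is not near silent. For known partners the rule thus set both sides of this comparison, and the part of shared fragments in it was not tested.

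**Figure D3:**
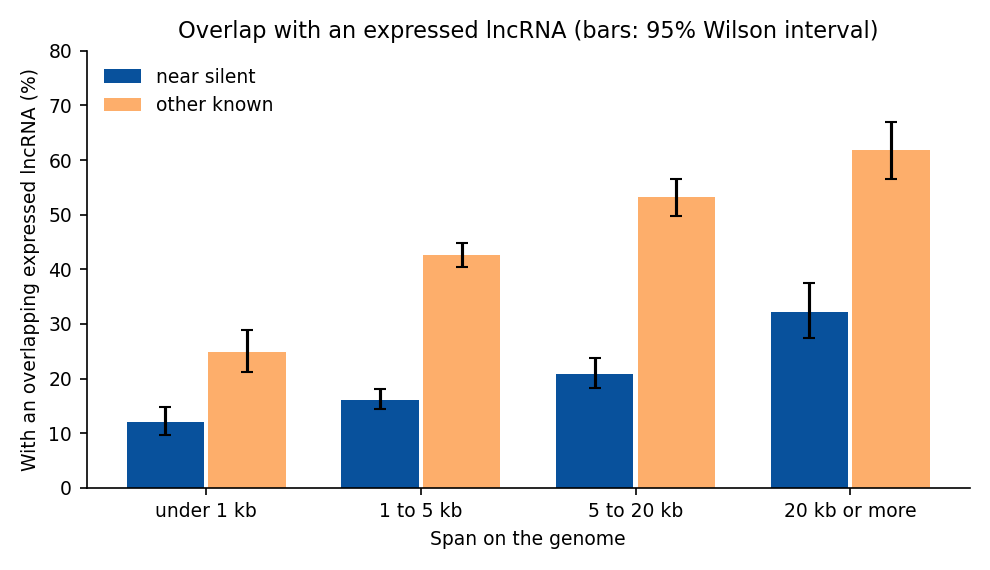
Share of lncRNAs whose span overlaps an expressed lncRNA (y axis, %) by their own span on the genome (x axis), in near-silent (blue) and other known lncRNAs (orange), with 95% Wilson intervals over lncRNAs. Both rise with span, and near-silent lncRNAs lie lower in each class, at 12.0% and 24.8% under 1 kb and at 32.2% and 61.9% from 20 kb upwards.

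Near-silent lncRNAs also lay further from expressed lncRNAs. Among those without an overlapping expressed lncRNA, the median distance to the nearest expressed one was 56.7 kb, compared with 33.7 kb for the other known lncRNAs. Of all near-silent lncRNAs, 990 (29.4%) lay more than 100 kb from any expressed lncRNA, compared with 508 (13.8%) of the others. These distances are to lncRNAs alone and were not split by chromosome or source. For known lncRNAs the rule set both sides here too. Overlapping spans join the lncRNAs of the table into 6923 loci. Of these, 2846 held a near-silent known lncRNA, and 451 of the 2846 (15.8%) also held an expressed one. In the other 2395 loci no lncRNA of the table was expressed, and 2114 of them held a single transcript.

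The 612 near-silent lncRNAs with an overlapping expressed lncRNA were met by 737 expressed lncRNAs, of which 678 were known and 59 unknown. Known lncRNAs overlapped 579 of them and unknown ones 47. The whole span of 275 (44.9%) lay inside that of an expressed lncRNA, and 24 had the same start and end as one. For unknown lncRNAs the exons are given, and 40 of the 47 near-silent lncRNAs met an exon, while 7 lay within introns only. Most partners were weak. The strongest partner of a near-silent lncRNA had a median of 4 fragments per hen over the 612. For 173 it had a median of at least 10 fragments, for 44 at least 50 and for 22 at least 100.

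In the loci with the strongest partners, a lncRNA with at least 120 fragments in every hen overlapped, in part or in full, one with at most 3. The assignment of shared fragments is not known, so these counts cannot be read as the levels of separate transcripts. NONGGAT013558.1 (chr15:10696823-10697729, 301 nt) had 1 fragment in 6 hens. Its partner NONGGAT002966.2 (chr15:10697009-10699193, 1281 nt) had a lowest, median and highest count of 366, 666 and 880 in long-DF hens and of 471, 728 and 898 in short-DF hens. NONGGAT000114.2 (chr1:15027164-15045155, 388 nt) had 5 fragments in 4 hens, and touches with its end the start of NONGGAT000116.2 (chr1:15045033-15052695, 6417 nt), which had 200, 620 and 835 fragments in long-DF hens and 191, 637 and 822 in short-DF hens. NONGGAT008821.2 (chr8:6392564-6417949, 1001 nt) had 21 fragments in 10 hens. It shares most of its span with NONGGAT008822.2 (chr8:6392963-6430740, 4250 nt), which had 506, 564 and 630 fragments in long-DF hens and 508, 612 and 769 in short-DF hens.

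The other loci of this kind include an unknown partner and a lncRNA with no fragment at all. NONGGAT015889.1 (chr6:2541453-2653851, 796 nt) had 6 fragments in 6 hens over a span that encloses the unknown lncRNA MSTRG.20282.1 (chr6:2579541-2586377, 2703 nt), which had 120 to 1027 fragments per hen. NONGGAT006889.2 (chr4:33624439-33628176, 1167 nt) had 0 fragments in all 14 hens. It lies wholly inside NONGGAT006888.2 (chr4:33624178-33628544, 3698 nt), which had 384, 456 and 642 fragments in long-DF hens and 364, 391 and 599 in short-DF hens. In each of these loci the ranges of the groups overlapped.

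The lncRNAs with 0 fragments in all hens overlapped an expressed lncRNA in 21 of 56 cases (37.5%), compared with 612 of 3370 (18.2%) for near-silent lncRNAs as a whole, which include them. This difference was not tested. The 5 longest of the 56 each had an expressed partner. NONGGAT005618.2 (chr28:2074989-2080219, 3939 nt) has the same start and end as NONGGAT005619.2 (4322 nt), which had 15, 44 and 506 fragments in long-DF hens and 21, 279 and 421 in short-DF hens. NONGGAT000005.2 (chr1:381115-420816, 2218 nt) overlaps NONGGAT000006.2 (2378 nt), with 6, 24 and 34 fragments in long-DF hens and 0, 19 and 26 in short-DF hens. The partners of the other members of this group were low. NONGGAT004206.2 (chr2:80792824-80797289, 3921 nt) shares start, end and length with NONGGAT004205.2, which had 0 to 7 fragments per hen. NONGGAT002989.2 (chr15:12447110-12452393, 2819 nt) shares start and end with NONGGAT002990.2, which had 1 to 11, and NONGGAT003202.2 (chr17:10449545-10451936, 2292 nt) overlaps NONGGAT003199.2, which had 0 to 7. The part of the assignment of shared fragments in these counts of 0 was not tested.

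The 3 loci with the most near-silent lncRNAs held 6 or 7 of them each, beside at least 3 expressed lncRNAs. The locus at chr4:49744412-49904952 held 10 transcripts, of which 7 were near silent, with 1 to 5 fragments each, summed over all hens. The longest of them, NONGGAT015526.1 (2100 nt), had 1 fragment in 2 hens, and the strongest transcript of the locus, NONGGAT007048.2, had 7 to 26 fragments per hen. The locus at chr7:2585528-3022212 held 11 transcripts with 7 near silent, all overlapping the span of NONGGAT016066.1 (33 to 91 fragments per hen), and the longest of the 7, NONGGAT008358.2 (1131 nt), had 4 fragments in 3 hens. At chr23:2775968-2891960, 6 of 9 transcripts were near silent, all inside the span of NONGGAT005155.2, which had 81 to 242 fragments per hen. The longest of the 6, NONGGAT014493.1 (1267 nt), had 10 fragments in 8 hens.

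Between 1294 and 1664 of the near-silent lncRNAs had a fragment in a given hen, and long-DF and short-DF hens overlapped widely. In long-DF hens the lowest, median and highest number was 1395, 1549 and 1664 (mean 1542.6 ± 84.8 SD, n = 7), and in short-DF hens 1294, 1489 and 1660 (1464.1 ± 121.0, n = 7). Within JH hens the mean was 1556 in long-DF and 1408.8 in short-DF hens (n = 4 each), and within JF hens 1524.7 in long-DF and 1538 in short-DF hens (n = 3 each). The means were thus further apart in JH than in JF hens, a difference that was not tested. The library total behind the FPKM averaged 7332763.9 in long-DF hens and 6815460.9 in short-DF hens over all hens. Within JF hens it averaged 8035489 in long-DF and 7203276.7 in short-DF hens. The part of the library total in the number with a fragment was not tested. Per 1000000 of that total the near-silent lncRNAs took 282.3 ± 41.5 fragments in long-DF and 278.8 ± 24.5 in short-DF hens (SD, n = 7 each). The difference in the mean number, long-DF minus short-DF, was 78.4. It was 59.7 with libraries thinned to the smallest total of lncRNA fragments and -3.86 with libraries thinned to the smallest library total, an alternative chosen after seeing the data. Since the lncRNAs were chosen on these hens, no p is given for these sums.

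**Figure D4:**
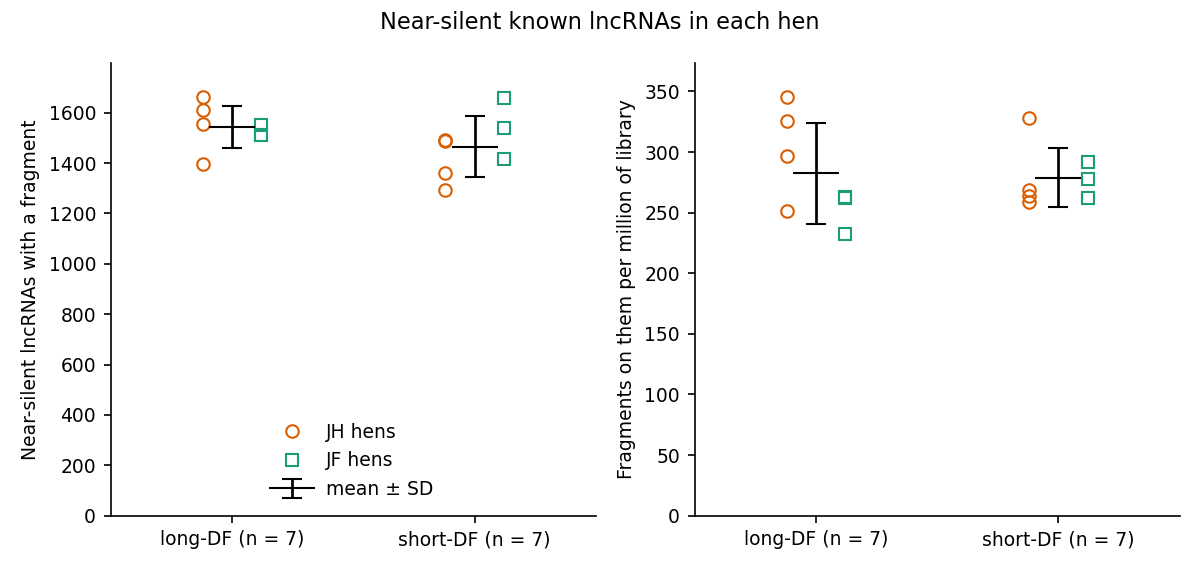
Near-silent known lncRNAs with at least 1 fragment (left, number) and fragments on them per 1000000 of the library total (right) in each hen, long-DF left of short-DF hens; circles are JH and squares JF hens, and black bars the mean ± SD of 7 hens. The groups overlap in both panels, at 1395 to 1664 and 1294 to 1660 lncRNAs and at 232.2 to 345.8 and 258.9 to 328.1 fragments per 1000000.

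No near-silent lncRNA was called between long-DF and short-DF hens. The test was edgeR's quasi-likelihood F test over all lncRNAs that reached an FPKM of 0.1 in 7 or more hens. A call required an adjusted p (Benjamini-Hochberg) no higher than 0.05, an unadjusted p no higher than 0.01 and a log2 fold change of 2 or more in size. Of 6887 lncRNAs tested 0 were called (0%), and so were 0 of the 1286 near-silent lncRNAs among them. The study, with edgeR and like thresholds, did report lncRNAs that differed between the groups. For some of them, all unknown lncRNAs, the study also reported fold changes by qPCR that were similar to those from sequencing. Why its calls differ from those here was not tested. An unadjusted p under 0.05 was reached by 147 lncRNAs in all (2.13%) and by 8 near-silent ones (0.622%). DESeq2 and limma also called 0 near-silent lncRNAs, and their calls over all lncRNAs are not given here. The fragments of long-DF and short-DF hens did not overlap for 0 of the 3370 near-silent lncRNAs and for 1 of all 9977 lncRNAs (0.01%). The rule kept only lncRNAs with at most 3 fragments in every hen of both groups, and so left out those higher in either group. It thus worked against a difference among near-silent lncRNAs, and their 0 calls cannot show that none exists. With at most 3 fragments in each hen, no fold changes are given.

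The near-silent lncRNAs with the smallest p values differed by a few hens. NONGGAT014763.1 (chr3:62672009-62673374, 1282 nt) had 1 fragment in 1 long-DF hen, against 9 fragments in 6 short-DF hens (edgeR, adjusted p = 0.995). NONGGAT004291.2 (chr2:97340313-97342520, 367 nt) had 5 fragments in 4 long-DF hens and 13 in 7 short-DF hens (edgeR, adjusted p = 0.995). In the other direction, NONGGAT007077.2 (chr4:53108831-53138179, 771 nt) had 13 fragments in 6 long-DF hens, against 3 in 3 short-DF hens (edgeR, adjusted p = 0.995), and NONGGAT012432.1 (chr1:138152787-138156965, 552 nt) had 8 fragments in 6 long-DF hens, against 1 in 1 short-DF hen (edgeR, adjusted p = 0.995). None of the 4 overlapped another lncRNA, and none passed the correction. One near-silent lncRNA is listed in the study among its leading lncRNAs between the groups, as down-regulated in long-DF hens. This lncRNA, NONGGAT003930.2 (chr2:42759575-42795298, 1735 nt), had 6 fragments in 5 long-DF hens and 6 in 6 short-DF hens and was under the FPKM filter. These counts do not show the lower level in long-DF hens that the study reported, and the reason was not tested. It overlaps NONGGAT003929.2 (1783 nt), which had 19, 58 and 95 fragments in long-DF hens and 16, 42 and 78 in short-DF hens.

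Between JH and JF hens, 9 near-silent lncRNAs were called. With the fertility group as a covariate, edgeR called 189 of 6887 lncRNAs between the prefixes (2.74%), 109 higher in JH (1.58%) and 80 lower in JH (1.16%). Of the 1286 near-silent lncRNAs tested, 5 were higher and 4 lower in JH, or 0.7%. The fragments of JH and JF hens did not overlap for 5 of the 3370 near-silent lncRNAs, compared with 215 of all 9977 lncRNAs (2.15%). Of the 5, 2 were higher in JH (0.782% of all lncRNAs) and 3 lower (1.37%). As all 5 lncRNAs called as higher in JH had 0 fragments in the 6 JF hens, they passed the FPKM filter through JH hens alone, and a lncRNA that does so had to differ. The 4 called as lower in JH passed it in all 6 JF hens and in 1 or 2 JH hens, so mainly through JF hens. A lncRNA found in JF hens alone could not reach the 7 hens of the filter and was not tested. The values of the 9 are therefore given as a description, with no p.

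NONGGAT012658.1 (chr1:46564411-46569483, 526 nt) had 1 to 3 fragments in each of the 8 JH hens, 19 in all, against 0 in the 6 JF hens. NONGGAT014695.1 (chr3:39467725-39473026, 424 nt) had exactly 1 fragment in each JH hen and 0 in JF hens. NONGGAT002076.2 (chr12:2294311-2294703, 318 nt) had 14 fragments in 7 JH hens and 0 in JF hens. These lncRNAs lay alone at their loci. NONGGAT009189.2 (chr9:4807580-4808735, 691 nt) and NONGGAT013069.1 (chr1:189969315-189975591, 991 nt) had 9 fragments each in 7 JH hens and 0 in JF hens.

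In the other direction, NONGGAT007787.2 (chr5:44705913-44707334, 1141 nt) had 1 fragment in 1 JH hen, against 12 in all 6 JF hens. NONGGAT002670.2 (chr14:10177286-10230662, 345 nt) had 2 fragments in 2 JH hens, against 14 in the 6 JF hens, each at 2 or 3. NONGGAT002404.2 (chr13:10272771-10362072, 624 nt) and NONGGAT009030.2 (chr8:23790072-23801330, 587 nt) had 1 fragment each in 1 JH hen, against 10 and 9 in JF hens. Of the 9, only the leading lncRNAs in each direction are set by the rule for names, and the others were named after the call. For NONGGAT002670.2, NONGGAT002404.2 and NONGGAT013069.1, an overlapping lncRNA was also at an adjusted p of at most 0.05 between JH and JF hens (edgeR). Overlapping lncRNAs may share fragments, and the share over all overlapping lncRNAs is not given, so this is a description only. Both prefixes hold long-DF and short-DF hens. The prefix and whatever differed between JH and JF hens in origin or handling cannot be told apart.

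**Figure D5:**
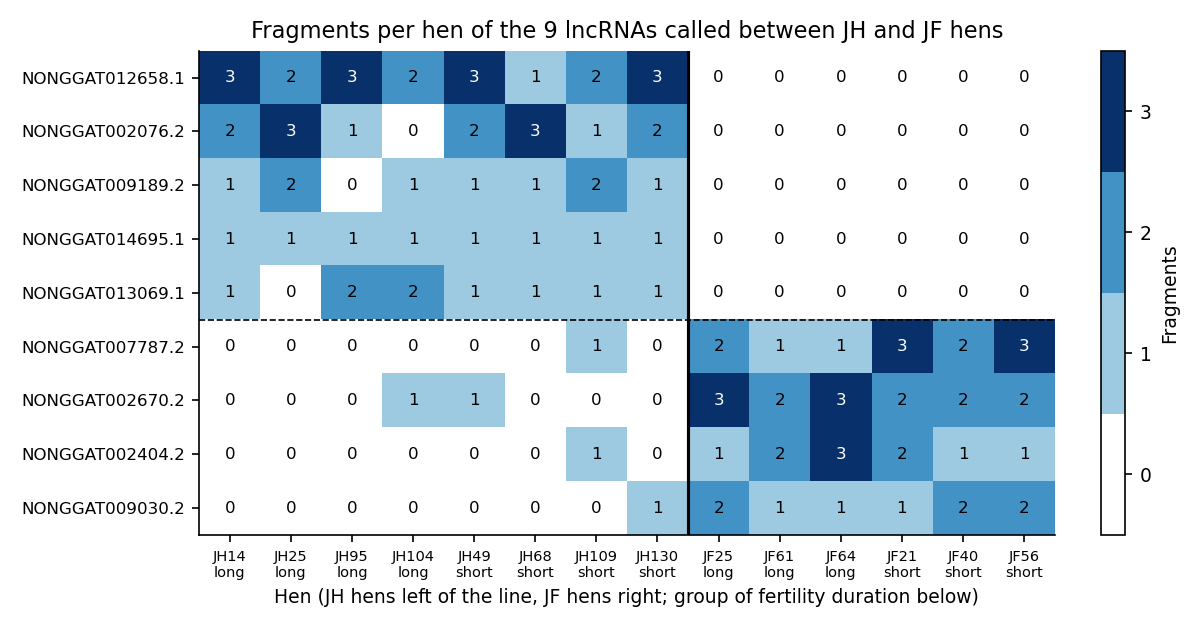
Fragments (numbers and shades, 0 to 3) of the 9 near-silent known lncRNAs called between JH and JF hens, in each of the 8 JH hens (left of the line) and 6 JF hens (right), with the fertility group under each hen. The 5 lncRNAs above the dashed line are at 0 in all JF hens, and the 4 below it have a fragment in every JF hen and in 1 or 2 JH hens.

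These calls rest on few fragments and depended on the tool and the hens. DESeq2 called 2 of the 9 and limma on log2 counts called 3. The calls over all lncRNAs with these tools or with 1 hen left out are not given here, so these numbers have no background. Leaving out 1 hen gave 3 to 6 calls, with fewer near-silent lncRNAs tested since the filter then asked for 7 of 13 hens. Not all of these calls were among the 9. Without JF40, 6 were called with 3 among the 9, and without JF25, 6 were called with 4 among the 9. The number fell to 3 without JH109, JF21 or JF56, to 4 without JF61 or JF64 and to 5 without JH68. Of those lower in JH, NONGGAT002670.2 was called in each of the 21 settings in which it was tested and NONGGAT009030.2 in 5 of 14. Without the FPKM filter, 11 of 3314 near-silent lncRNAs were called, 2 higher and 9 lower in JH, with 202 of 9868 lncRNAs called in all (2.05%), 102 higher (1.03%) and 100 lower (1.01%).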

How the data were processed

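RNA of the UVJ of 14 hens was sequenced as stranded total RNA, 1 library per hen. Reads were mapped by the authors to Galgal4 (TopHat), transcripts were assembled (StringTie) and set against known annotations (Gffcompare), and lncRNAs were kept by length, number of exons and coding potential. They deposited the raw count of fragments on each of 9977 lncRNAs in each hen, without normalization, and FPKM values, scaled by the authors to the length of the transcript and the size of the library. The counting tool is not given in the sources used here. The library total was computed back from count, length and FPKM. A further annotation held exons of the unknown lncRNAs.

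Near silence was taken from the counts. Overlap was taken from the spans in the table, on either strand. Groups were compared with the quasi-likelihood F test of edgeR 4.0.16 in R 4.3.3, with TMM normalization over the whole table and an FPKM filter of 0.1 in at least 7 hens. DESeq2 1.42.0 and limma 3.58.1 were alternatives. Other steps used Python 3.11.15, numpy 2.4.6, pandas 2.3.3, scipy 1.17.1 and matplotlib 3.10.9. The test was run on simulated data for all lncRNAs that passed the filter. What it can detect among near-silent lncRNAs alone was not assessed. P values set a difference between groups against the spread between the hens within groups. That spread was estimated in part from all lncRNAs tested. No p was given for sums over the near-silent lncRNAs, whose members, lists and comparisons were chosen with earlier results of these data known.

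The lncRNAs named were the 5 longest with 0 fragments, the 5 with most fragments, the 5 with the strongest expressed partner (1 per locus), the longest in each of the 3 loci with most near-silent lncRNAs, in each comparison the 2 of smallest p per direction, those in the study's list of leading lncRNAs, and the 5 longest with a fragment in every hen. Chromosomes were named if they held at least 50 known lncRNAs and had one of the 3 highest or lowest shares. Symbols of RefSeq lncRNAs came from the RefSeq gene table of a later assembly, matched by accession. Alternatives changed the threshold, the definitions of expression and overlap, the filter, the normalization, the tool and the hens left out. No genome of the build was used, and no sequences are given.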

Additional observations from a re-analysis of the deposited data

Results flagged for a closer look

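The lncRNAs that follow are expressed partners of near-silent ones, and in each a hen stood apart from the other 6 of its group by more than the critical value of Dixon's ratio. For normally distributed values, chance alone gives such a gap in about 1 of 20 groups. This rate need not hold for low counts with many at 0, such as those of NONGGAT004205.2 and NONGGAT003199.2. In all, 36 groups of 7 hens were examined, those of the summed values per hen included. NONGGAT005619.2 had 506 fragments in the long-DF hen JH25, with a gap to the next hen of 0.68 of the range of its group. NONGGAT004205.2 had 7 fragments in the long-DF hen JF25 (0.714 of the range). NONGGAT003199.2 had 7 fragments in the long-DF hen JH95 (0.571). NONGGAT000116.2 had 191 fragments in the short-DF hen JF56 (0.574), which was the lowest of its group. Single near-silent lncRNAs were not examined in this way, since each of their counts lies within what a count of 0 allows in a single hen.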

How the results depend on the processing

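The number of near-silent known lncRNAs, 3370 as reported, was 56 with 0 fragments in every hen, 1638 with at most 1 fragment, 162 with an FPKM under 0.1 in every hen and, chosen after seeing the data, 2193 with an FPKM under 0.5 and 2058 without the source PMID24463510. Leaving out 1 hen gave 3383 to 3423. The share with an overlapping expressed lncRNA, 18.2%, was 10.9% with at least 1 fragment in every hen as the definition of expressed, 4.51% with more than 3 in every hen, 23.6% with an FPKM of at least 0.1 in 7 hens, 13.9% with 50% of the span overlapped, 30.9% with the span widened by 10 kb and 1.39% with unknown partners only. For near silence at 0, at most 1 and at most 5 fragments it was 37.5%, 13.7% and 15.9%, and 21.7% without PMID24463510. Leaving out 1 hen gave 18.1% to 18.4%. The median length, 528.5 nt, was 640.5, 483.5 and 547 nt at these thresholds, 1899.5 nt with an FPKM under 0.1, 495 nt without overlapping lncRNAs and 569 nt without PMID24463510, and 527 to 531 nt with 1 hen left out. The share that also met the rule in the other hens, 92.7%, was 90.6%, 91.0% and 88.3% from short-DF, JH and JF hens.

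The difference in near-silent lncRNAs with a fragment per hen, long-DF minus short-DF, was 78.4. The SD between single hens, pooled over the groups, was 104.5, which is not the error of a difference of means. The difference was 147.2 in JH hens alone, -13.3 in JF hens alone and 59.7 with libraries thinned to the smallest total of lncRNA fragments. It was -3.86 with libraries thinned to the smallest library total, an alternative chosen after seeing the data. Leaving out 1 hen gave 50.1 to 111.1. Calls between long-DF and short-DF hens stayed at 0 in the 10 alternatives and the 14 fits with 1 hen left out. Calls between JH and JF hens, 9 as reported, were 2 with an FPKM filter of 0.5, of which 1 was among the 9. They were 2 with DESeq2, 3 with limma and 3 to 6 with 1 hen left out. For these settings and the filter of 0.5, no share over all lncRNAs is given. Without the filter there were 11, of which 2 were higher and 9 lower in JH, and 6 were among the 9. Strand and NONCODE gene identifiers of known lncRNAs are not in the table used here, so overlap on the same strand, on the opposite strand or by gene was not run. No paired analysis was possible because replicate numbers only name the hens in order of their records. Depth limits each value, at 3 fragments or fewer.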
